A study of Mus musculus with 3 samples.

Results

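Conventional-only Tcf1 peaks at gene ends are stretches of DNA that were called as bound by Tcf1 in conventional CD4 T cells, were not called in regulatory T (Treg) cells, and lie where a gene begins or stops. They were chosen by their positions in the peak lists of both cell types. A peak of the conventional list on chromosomes 1 to 19 was taken if it overlapped no Treg peak, had no Treg peak midpoint within 1000 bp of its own midpoint, and had its midpoint within 1 kb of either end of a gene in the mouse RefSeq table. This gave 1344 peaks of the 4519 in the conventional list and of 7921 in both lists. Since absence from the Treg list is what selected them, that absence is a description and not a result.

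Tcf1, the product of Tcf7, is an HMG-box transcription factor that bends DNA at short sites with the core CTTTGA or CTTTGT, and it acts in Wnt signalling with beta-catenin or with Tle corepressors. In T cells it is known for its part in thymic development, in CD4 lineage identity and in the survival of memory cells. A promoter is the stretch around a gene's start where general transcription machinery assembles, and many promoters of genes active in all cells lie in CpG islands, which are rich in G and C and keep the CG pairs that most of the genome has lost.

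Binding was measured by chromatin immunoprecipitation and sequencing (ChIP-seq) with antiserum to Tcf1. Conventional CD4 T cells were TCRb+ CD4+ cells that carried neither CD25 nor the Foxp3-Cre-GFP reporter, and their tissue label calls them effector CD4 T cells. Treg cells were TCRb+ CD4+ cells that carried both. Both were sorted from the spleens of wild type Foxp3-Cre-GFP mice aged 8 to 10 weeks. A library of TCRb+ CD4+ Tcf1-deficient cells from CD4-Cre+ Tcf1 fl/fl mice, in which Cre acts from the CD4 promoter, was not analysed here. Each cell type had 1 library and 1 peak list in mm10 coordinates. The lists hold positions without read counts, so the depth is unknown, a binding strength cannot be given, and a peak missing from the Treg list may be bound below the calling threshold. With a single library for each cell type, the tests set 1 list against another and say nothing of variation between animals. Intervals are 95% Clopper-Pearson intervals that cover counting error only.

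The promoter sequences below show what lies under the peaks. They are RefSeq windows of build GRCm38.p6, whose primary chromosomes are those of mm10, and each runs from 250 bases before a gene's start to 50 after it, 5′ to 3′ on the gene's strand. Each lies wholly inside a conventional-only peak. The first set comes from 3 of the 8 widest peaks, and none of these windows holds a TCF/LEF core on either strand. The Hnrnpf and Rbm39 windows are at starts inside those genes' spans, and the Cited2 window is at the outer start of its gene.
Hnrnpf, chr6:117907554-117907853, plus strand: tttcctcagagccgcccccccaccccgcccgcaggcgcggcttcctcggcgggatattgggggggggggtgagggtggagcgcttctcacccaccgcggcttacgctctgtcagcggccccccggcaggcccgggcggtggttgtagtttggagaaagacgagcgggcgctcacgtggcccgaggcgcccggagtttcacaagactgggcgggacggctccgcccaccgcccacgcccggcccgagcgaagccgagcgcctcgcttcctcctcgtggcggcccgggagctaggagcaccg
Rbm39, chr2:156179531-156179830, minus strand: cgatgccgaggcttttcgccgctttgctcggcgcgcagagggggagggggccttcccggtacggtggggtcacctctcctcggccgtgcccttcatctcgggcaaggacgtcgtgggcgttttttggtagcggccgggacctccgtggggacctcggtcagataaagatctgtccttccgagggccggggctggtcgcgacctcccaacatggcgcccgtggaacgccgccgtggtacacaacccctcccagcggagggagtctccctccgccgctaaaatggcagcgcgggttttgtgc
Cited2, chr10:17722978-17723277, plus strand: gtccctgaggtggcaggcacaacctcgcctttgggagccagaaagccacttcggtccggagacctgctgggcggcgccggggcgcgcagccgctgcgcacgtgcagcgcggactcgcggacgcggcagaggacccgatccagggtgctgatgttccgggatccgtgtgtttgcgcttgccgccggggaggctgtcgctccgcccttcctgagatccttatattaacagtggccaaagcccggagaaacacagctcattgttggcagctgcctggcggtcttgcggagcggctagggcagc
The second set comes from the widest peaks at listed genes whose window does hold a core, and the core is in capitals. Gsk3a has 1 core at position 94 of the window, Eif4a1 has 1 at position 236, and Pbld2, under the peak it shares with the neighbouring gene Hnrnph3, has 2 at positions 101 and 150.
Gsk3a, chr7:25237802-25238101, minus strand: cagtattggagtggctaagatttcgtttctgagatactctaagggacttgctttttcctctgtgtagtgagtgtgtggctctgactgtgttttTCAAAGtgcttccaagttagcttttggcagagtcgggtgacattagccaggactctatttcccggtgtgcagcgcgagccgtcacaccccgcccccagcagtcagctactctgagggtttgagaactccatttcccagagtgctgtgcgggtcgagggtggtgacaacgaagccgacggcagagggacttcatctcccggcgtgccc
Eif4a1, chr11:69672374-69672673, minus strand: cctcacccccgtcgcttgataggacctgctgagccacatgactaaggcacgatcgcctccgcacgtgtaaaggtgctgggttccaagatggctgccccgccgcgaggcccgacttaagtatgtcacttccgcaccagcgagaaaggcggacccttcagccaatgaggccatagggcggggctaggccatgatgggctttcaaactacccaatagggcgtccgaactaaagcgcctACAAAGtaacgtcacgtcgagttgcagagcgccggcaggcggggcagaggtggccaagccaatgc
Pbld2, chr10:63024262-63024561, plus strand: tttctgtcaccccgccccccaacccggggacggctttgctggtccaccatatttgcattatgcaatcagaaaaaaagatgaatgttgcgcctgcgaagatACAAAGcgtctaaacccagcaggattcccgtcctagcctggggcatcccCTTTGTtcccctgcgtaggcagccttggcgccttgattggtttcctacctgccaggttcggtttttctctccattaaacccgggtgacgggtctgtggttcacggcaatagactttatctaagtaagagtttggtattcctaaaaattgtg
The first set is G and C in 73.7% of its bases at Hnrnpf, 67.3% at Rbm39 and 66.7% at Cited2. The second is less so, with 54.3% at Gsk3a, 60.7% at Eif4a1 and 50.7% at Pbld2. That set was picked for holding a core, which is mostly A and T, so the contrast is not independent of the choice.

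Nearly all of the peaks whose gene has a known strand lay at a gene start. Of 1096 with the end of a gene of known strand within 1 kb, 1049 had a gene start there, or 95.7% (94.3% to 96.8%), and the remaining 47 had only the far end of such a gene. For 248 peaks, 32 of them on chromosome 18, the tables give no strand for any gene within reach. The share at a start was 95.2% (93.5% to 96.5%) for the 848 shared gene-end peaks with a strand and 97.1% (94.9% to 98.5%) for the 408 Treg-only ones. The differences were 0.547 and -1.35 percentage points (two-sided Fisher's exact tests, adjusted p = 0.729 and 0.492 over 10 tests), so the side of the gene did not separate the classes at this number of peaks. The midpoint of the conventional-only peaks lay a median of 35 bp into the gene (interquartile range 78 bp before the start to 170 bp after it), against 3 bp for shared peaks and 17 bp for Treg-only peaks. Within 250 bp of the start lay 74.4% of the conventional-only midpoints, 73.4% of the shared ones and 74.7% of the Treg-only ones.

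**Figure D1:**
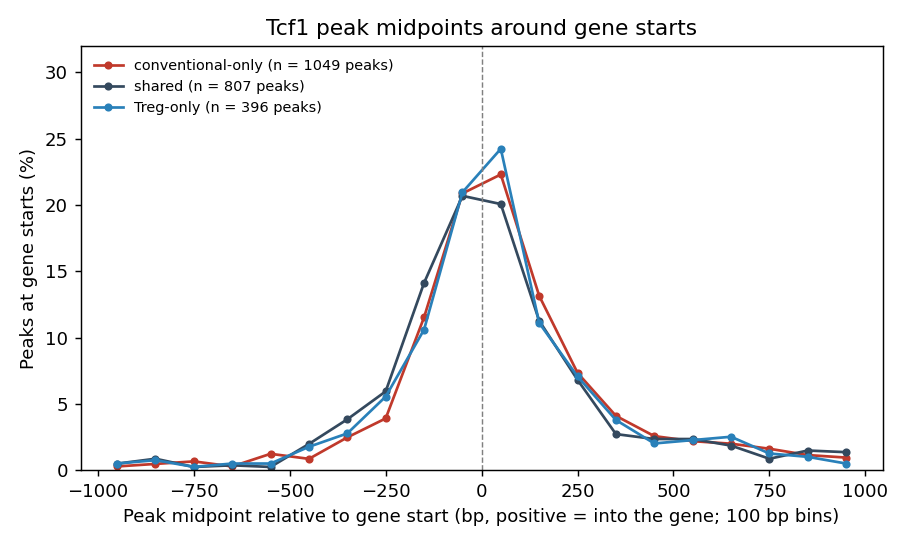
Share of peaks at gene starts (vertical axis, %) by the position of the peak midpoint relative to the start (horizontal axis, bp in bins of 100, positive into the gene) for 1049 conventional-only, 807 shared and 396 Treg-only peaks. All 3 curves peak in the bins beside the start, and conventional-only midpoints have a median of 35 bp into the gene.

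At least 2 genes had an end within 1 kb of 428 of the peaks, or 31.8% (29.4% to 34.4%), and 29 of these touched 3 or more genes. The share was 34.4% (31.5% to 37.3%) for shared peaks and 28.3% (24.5% to 32.3%) for Treg-only peaks (differences of -2.51 and 3.54 percentage points, Fisher's exact tests, adjusted p = 0.407 and 0.34). In 263 of the 1096 peaks with a strand, or 24.0%, the starts of genes on opposite strands lay within reach, an arrangement that includes divergent promoters, against 25.6% of shared and 20.3% of Treg-only peaks. An end of a protein-coding gene was within reach of 1195 peaks, or 88.9% (87.1% to 90.5%). It was within reach of 88.1% (86.0% to 90.0%) of shared peaks (adjusted p = 0.729, Fisher's exact test) and 84.4% (81.0% to 87.3%) of Treg-only peaks, 4.56 points below the conventional-only class (adjusted p = 0.0277, Fisher's exact test). That difference rested on 17 Treg-only peaks at rRNA gene copies, of which the conventional-only class had 0. Without them the Treg-only share was 87.1% of 520 and the difference 1.8 points (Fisher's exact test, adjusted p = 0.492, an alternative added after seeing the data).

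Conventional-only peaks were narrower than shared ones in the same list. Their median width was 400 bp (interquartile range 331 to 507, range 279 to 1373), against 508 bp (390 to 661, range 279 to 5787) for shared gene-end peaks. The share of conventional gene-end peaks that were conventional-only was 74.7% (70.6% to 78.5%) in the narrowest width quintile and 35.6% (31.3% to 40.0%) in the widest, with 62.7%, 59.5% and 44.3% in the quintiles between. A wide peak meets a Treg peak more easily, so width is not independent of the selection and carries no test here. Over all widths 55.4% of the 2428 conventional gene-end peaks were conventional-only, beside 58% of the 1392 conventional peaks inside genes and 54.2% of the 642 between genes, which the selection fixes. By chromosome the share at gene ends ran between 46.3% on chromosome 9 and 67.6% on chromosome 2.

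**Figure D2:**
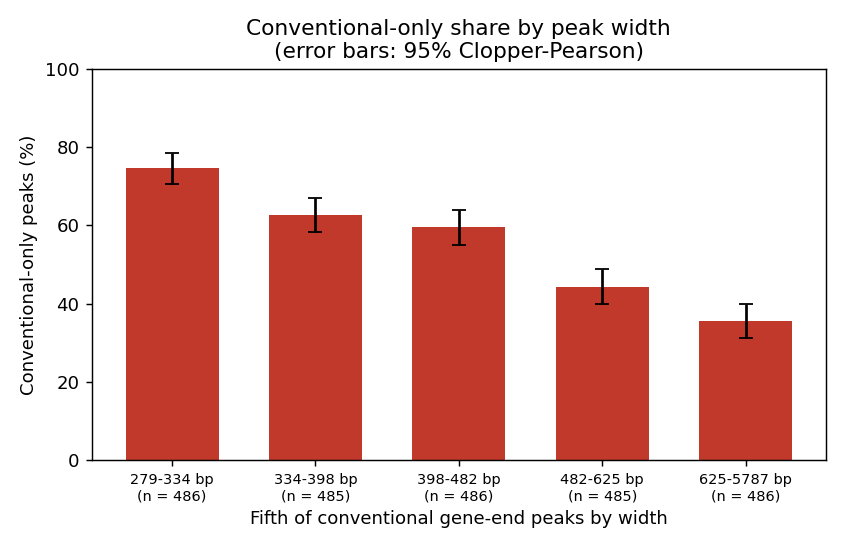
Share of conventional gene-end peaks that were conventional-only (vertical axis, %, bars with 95% Clopper-Pearson intervals) in quintiles of the peaks by width (horizontal axis, bp). The share is 74.7% in the narrowest quintile and 35.6% in the widest.

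Most of the promoter windows that lay inside the peaks were CpG-rich. A whole RefSeq promoter window lay inside 318 of the 1344 peaks, and these had a median of 64.3% G and C and an observed over expected CpG ratio of 0.869. Of them 253 met the definition of CpG-rich used here (at least 55% G and C and a ratio of at least 0.65), or 79.6% (74.7% to 83.9%). Windows inside shared peaks had 314 of 391, or 80.3% (76.0% to 84.1%), and those inside Treg-only peaks 41 of 50, or 82% (68.6% to 91.4%) (differences of -0.747 and -2.44 points, Fisher's exact tests, adjusted p = 0.85 for both). Over all 20085 protein-coding windows of the same length outside chromosome 18 the share was 39.2% and the median ratio 0.586. Among windows overlapped by a peak, 76.2% of 926 were CpG-rich at conventional-only peaks. The shares were 77.0% of 727 at shared and 79.5% of 331 at Treg-only peaks.

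**Figure D3:**
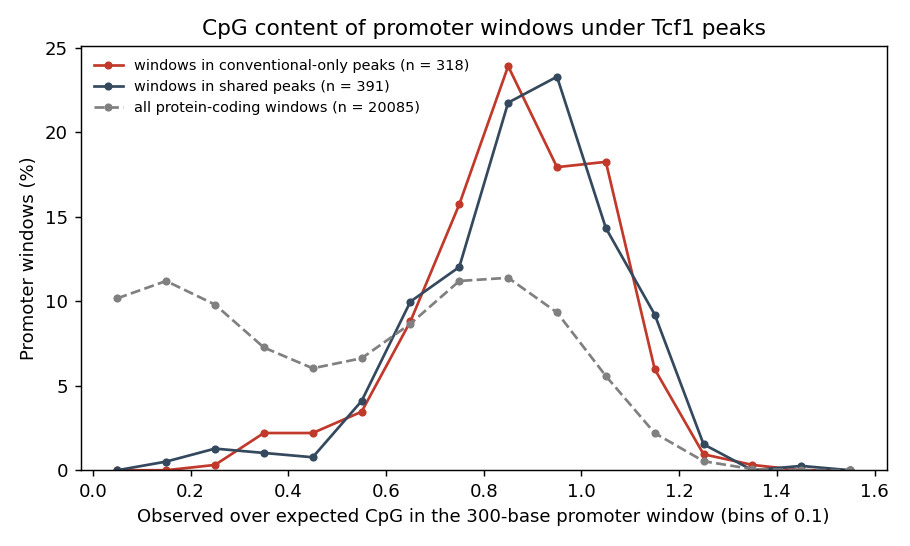
Share of 300-base promoter windows (vertical axis, %) by observed over expected CpG (horizontal axis, bins of 0.1) for windows in conventional-only peaks, windows in shared peaks and all protein-coding windows. The windows in both classes of peak sit mostly above 0.65, where all protein-coding windows have a second group at low values.

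Cores of the TCF/LEF site stood in a minority of the promoter windows that lay inside conventional-only peaks. Either form, CTTTGA or CTTTGT on either strand, was in 69 of the 318 windows, or 21.7% (17.3% to 26.6%). It was in 30.9% (26.4% to 35.8%) of the 391 windows in shared peaks, 20% (10.0% to 33.7%) of the 50 in Treg-only peaks and 27.9% of all protein-coding windows. Base composition moves with these shares. Among CpG-rich windows alone either form was in 18.2% (13.6% to 23.5%) of conventional-only, 28.3% (23.4% to 33.7%) of shared, 14.6% (5.57% to 29.2%) of Treg-only and 16.6% of protein-coding windows, so the side on which conventional-only windows fell of protein-coding windows changed with composition. The CTTTGA form was in 9.12% (6.19% to 12.8%) of conventional-only windows, against 19.4% (15.6% to 23.7%) of shared, 14% (5.82% to 26.7%) of Treg-only and 14.2% of protein-coding windows. Among CpG-rich windows it was in 7.11%, 16.2%, 9.76% and 7.63% of these sets. The CTTTGT form was in 13.2% (9.69% to 17.4%) of conventional-only windows, 14.8% (11.5% to 18.8%) of shared ones and 6% (1.25% to 16.5%) of Treg-only ones, and among CpG-rich windows in 11.5% of conventional-only and 9.76% of protein-coding windows. The low share is not particular to the conventional-only class. Among windows overlapped by a peak, either form was in 22.6% of 926 at conventional-only and 21.1% of 331 at Treg-only peaks. The windows were also split by peak width. In peaks of at least 428 bp, the median of the conventional list, CTTTGA was in 9.47% (6.09% to 13.9%) of 243 conventional-only and 20.9% (16.7% to 25.6%) of 340 shared windows. In narrower peaks it was in 8% (2.99% to 16.6%) of 75 and 9.8% (3.26% to 21.4%) of 51. Either form was in 21.8% and 21.3% of conventional-only windows in wider and narrower peaks, and in 31.8% and 25.5% of shared ones. These shares are descriptions with no test, and a window without a core says nothing of sites elsewhere in the peak.

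Motifs of general promoter factors are given among CpG-rich windows as well, since composition alone moves most of them. The GC box GGGCGG of Sp and Klf factors was in 73.3% (68.0% to 78.1%) of the conventional-only windows, 77.0% of the shared ones and 47.0% of protein-coding windows, and among CpG-rich windows in 81.0%, 82.5% and 80.2%. The ETS core CCGGAA was in 39.3% (33.9% to 44.9%), 38.9% and 19.1% of all windows and in 42.3% (36.1% to 48.6%), 41.4% and 31.0% of the CpG-rich ones. The pentamer CCAAT, bound by NF-Y, was in 40.9%, 37.3% and 38.1% of all windows and in 40.3% (34.2% to 46.6%), 36.3% and 34.9% of the CpG-rich ones. Of these 3 motifs, the ETS core was the one whose conventional-only interval lay above the protein-coding share in both sets of windows. For the less frequent motifs the CpG-rich values are given for conventional-only and protein-coding windows. The YY1 core AAGATGGC was in 6.72% (3.96% to 10.5%) and 4.75%, and the NRF1 core GCGCATGC in 6.32% and 6.22%. The cAMP response element TGACGTCA was in 5.14% and 3.87%, and TATAAA in 3.56% and 3.87%. The RUNX core TGTGGT was in 8.30% and 8.71%, and the AP-1 site TGANTCA in 3.95% and 2.87%. The E-boxes CAGGTG and CAGCTG were in 15.4% and 10.3% of conventional-only and 17.1% and 13.0% of protein-coding windows. All were searched on both strands, and overlapping matches of different motifs each counted.

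The widest of the peaks stood at genes of varied function. The widest, of 1373 bp (chr6:117906735-117908107), had its midpoint 784 bp inside the start of 4933440N22Rik and covered the Hnrnpf window printed above, and its nearest Treg midpoint was 27859 bp away. Kmt5b, a histone H4 methyltransferase gene, had a peak of 1245 bp (chr19:3767693-3768937) centred 953 bp into the gene. Smad4, which encodes the common partner of receptor-activated Smads, and the neighbouring lncRNA gene 4930578L24Rik shared a peak of 1207 bp. Rbm39, a splicing factor gene, had 1188 bp (chr2:156179366-156180553), with the nearest Treg midpoint 16685 bp away. Cited2, which encodes a regulator that binds CBP and p300, had 1129 bp (chr10:17722215-17723343) centred 449 bp before its start. Ndufv2, a subunit gene of respiratory complex I, had 1098 bp (chr17:66101106-66102203) centred 96 bp before its start. The other 2 of the 8 lay at the lncRNA genes Gm26901 (1302 bp) and Gm46733 (1136 bp).

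A conventional-only peak lay at an end of 1417 of the 20665 protein-coding genes on chromosomes 1 to 19, or 6.86%. A shared peak lay at an end of 5.28% of them and a Treg-only peak at 2.55%. These are the shares against which 24 gene lists with 1504 distinct genes are set below, and 180 of the listed genes had a conventional-only peak at an end. The lists get no test, and a share alone makes nothing particular to a list.

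**Figure D4:**
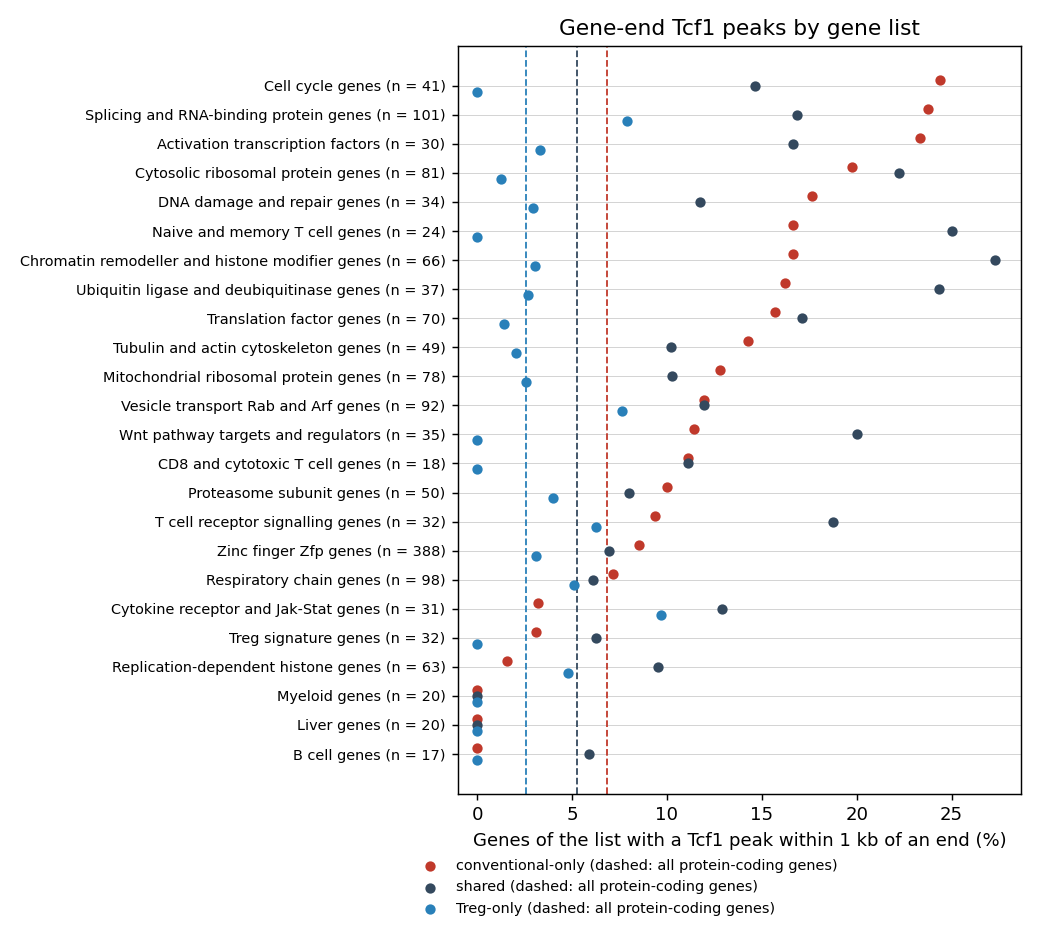
Share of the genes in each of 24 lists (rows, with the number of genes) that had a conventional-only, shared or Treg-only Tcf1 peak within 1 kb of an end (horizontal axis, %). Dashed lines give the share over all protein-coding genes, at 6.86%, 5.28% and 2.55%, and the conventional-only share ran between 0% and 24.4% of a list.

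The list of cell cycle genes had the largest conventional-only share of the 24 lists, with 10 of 41, or 24.4% (12.4% to 40.3%), against 6 with a shared and 0 with a Treg-only peak. Its interval overlaps those of the lists that follow it. The lead depends on Ccnt1, a cyclin of transcription that the list includes, and on the window. With a window of 2 kb the list stayed at 10 of 41, below 8 of 30 activation factors and 6 of 24 naive and memory genes. Pcna, the sliding clamp of DNA replication, had a peak of 858 bp (chr2:132252652-132253509) with its midpoint 99 bp from the start, and the nearest Treg midpoint was 217355 bp away. The replicative helicase genes Mcm7 and Mcm2 had peaks of 450 and 419 bp. The Cdk inhibitor genes Cdkn2d, Cdkn1b and Cdkn2c had 685 (at the far end of Cdkn2d), 334 and 317 bp. Ccnt1, the cyclin of the elongation kinase P-TEFb, had 585 bp, the mitotic kinase gene Aurka 476 bp, the pocket protein gene Rbl2 336 bp and Ccng1 323 bp.

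Among genes of RNA processing and translation, the shares ran between 23.8% and 12.8%. Splicing and RNA-binding protein genes had 24 of 101, or 23.8% (15.9% to 33.3%), with 17 shared and 8 Treg-only. Behind Rbm39, the widest were Hnrnpul2 (911 bp) and Hnrnpab (864 bp), and Sf3b1, a core subunit of the U2 particle, had 585 bp. Cytosolic ribosomal protein genes had 16 of 81, or 19.8% (11.7% to 30.1%), with 18 shared and 1 Treg-only, among them Rpl4 (586 bp, at its far end) and Rpl15 (524 bp). Translation factor genes had 11 of 70, or 15.7% (8.11% to 26.4%), with 12 shared and 1 Treg-only, among them the initiation helicase gene Eif4a1 (639 bp), Eif1 (601 bp) and Eif1ad (592 bp). Mitochondrial ribosomal protein genes had 10 of 78, or 12.8% (6.32% to 22.3%). Among energy and protein turnover lists, respiratory chain genes had 7 of 98, or 7.14% (2.92% to 14.2%), and proteasome genes 5 of 50, or 10% (3.33% to 21.8%). The respiratory chain share is near the 6.86% of all protein-coding genes.

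Chromatin and DNA maintenance genes were also represented. Chromatin remodeller and histone modifier genes had 11 of 66, or 16.7% (8.62% to 27.9%), and more with a shared peak, 18 of 66. The widest conventional-only peaks were at Smarca5, an ISWI remodeller (892 bp), the acetyltransferase gene Crebbp (833 bp) and Eed of Polycomb complex 2 (641 bp). DNA damage and repair genes had 6 of 34, or 17.6% (6.76% to 34.5%), led by Prkdc (501 bp) and Xrcc5 (438 bp), both of the end-joining kinase, and Ercc3 (397 bp), a TFIIH helicase. Ubiquitin ligase and deubiquitinase genes had 6 of 37, and more with a shared peak, 9 of 37. Cul4a, a ligase scaffold, had 1052 bp and Cyld, a deubiquitinase that restrains NF-kappaB, 620 bp. Cytoskeleton genes had 7 of 49, with the Arp2/3 subunit gene Actr2 at 942 bp, and 5 with a shared peak, and Rab and Arf genes had 11 of 92, with 11 shared. Zinc finger Zfp genes had 33 of 388, or 8.51% (5.93% to 11.7%). Replication-dependent histone genes, a multigene family whose copies resemble each other, had 1 of 63 (H1f2, at its far end), with 6 shared and 3 Treg-only.

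Among lists of T cell genes, the activation factors had more genes with a conventional-only than with a shared peak, and the naive and memory, Wnt and receptor signalling lists had fewer. The counts are small, and the intervals of both shares overlap in each of these lists. Without the distance rule, 8 activation factors and 6 naive and memory genes had a conventional-only peak. With a Treg distance of 5000 bp, 5 and 2 had one. Activation transcription factors had 7 of 30, or 23.3% (9.93% to 42.3%), with 5 shared and 1 Treg-only. They were Rel, an NF-kappaB subunit (617 bp), the AP-1 genes Fosb (476 bp), Batf (424 bp) and Jund (348 bp, at its far end), the nuclear receptor genes Nr4a1 (415 bp) and Nr4a3 (319 bp), and Nfkbie, an NF-kappaB inhibitor (298 bp, at its far end). Naive and memory T cell genes had 4 of 24, with 6 shared. They were the survival gene Bcl2 (670 bp, chr1:106713946-106714615), Foxo1 (366 bp), the egress receptor gene S1pr1 (359 bp) and Lef1, the closest relative of Tcf1 (330 bp, 475 bp before its start). Wnt pathway genes had 4 of 35, with 7 shared. They were Gsk3a, a kinase that marks beta-catenin for destruction (958 bp), the corepressor genes Tle4 (642 bp) and Tle1 (368 bp), and the Wnt inhibitor gene Nkd1 (341 bp). T cell receptor signalling genes had 3 of 32 (Ubash3a, Grap2 and, at its far end, Cd3e), with 6 shared and 2 Treg-only.

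Lists of Treg genes, cytokine signalling and other lineages are short, and none of their conventional-only shares can be told from the 6.86% of all protein-coding genes at this size. Of 32 Treg signature genes only Ikzf2, which encodes Helios, had a conventional-only end peak (293 bp), beside 2 with a shared and 0 with a Treg-only peak. This is 3.13% (0.0791% to 16.2%). Of 31 cytokine receptor and Jak-Stat genes only Stat6, which relays interleukin 4, had one (563 bp), or 3.23% (0.0816% to 16.7%), beside 4 shared and 3 Treg-only. The CD8 and cytotoxic T cell list had 2 of 18 (Cd8b1 and Fasl), or 11.1% (1.38% to 34.7%). Conventional-only counts were 0 of 17 B cell genes (up to 19.5%) and 0 of 20 for both myeloid and liver genes (up to 16.8% each).

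Some peaks lay at genes that make no protein. An lncRNA gene end was within reach of 255 conventional-only peaks, or 19%, against 22.5% of shared and 18.1% of Treg-only peaks, and 150 of the 255 lay beside a protein-coding end. A tRNA gene was within reach of 21 of them, or 1.56%, against 1.44% of shared and 0.931% of Treg-only peaks. An miRNA gene was within reach of 13, or 0.967%, against 1.44% and 0.372%, and a snoRNA gene likewise of 13, against 0.574% and 0.745%. An snRNA gene was within reach of 9, or 0.67%, against 1.15% and 1.12%. No protein-coding end was within reach of 14 of these tRNA, 3 of the miRNA, 5 of the snoRNA and 6 of the snRNA peaks. These small shares carry no test. A peak of 378 bp (chr11:69040956-69041333) had 4 tRNA genes within reach. A peak of 409 bp lay at Rn7sk, whose RNA holds P-TEFb inactive. A peak of 440 bp (chr10:122985464-122985903) lay over Mirlet7i, a member of the let-7 family that lowers the levels of growth-promoting targets. The mature 5p strand of Mirlet7i is given with its seed, bases 2 to 8, in capitals, and its 3p strand is not shown.
mmu-let-7i-5p: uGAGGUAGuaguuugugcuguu
Variable segments of antigen receptors were at 7 conventional-only peaks, or 0.521%, at 0 shared peaks and at 2 Treg-only peaks, or 0.372%. Ighv1-50, Ighv1-54 and Ighv1-82 are on chromosome 12 and Trav5-1, Trav9d-2, Trav12d-3 and Trav12n-3 on chromosome 14. They belong to families of similar copies, so the assignment of reads among them is uncertain.

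Most genes with such a peak had no other Tcf1 peak nearby. The selection against Treg peaks raises this share, and it is set against no other genes. Of the 1417 genes, 1119, or 79.0% (76.8% to 81.1%), had only 1 peak of either list in their span and 10 kb around it. Another conventional-only peak lay there in 12%, a shared one in 8.33% and a Treg-only one in 4.45%. A Treg peak of any class lay there in 167 genes, or 11.8% (10.2% to 13.6%), a share that the selection against Treg peaks lowers and that is set against no other genes. Lef1 was an exception, with 8 conventional peaks, 5 of them conventional-only, and 4 Treg peaks. Nr4a1 had 6 conventional and 4 Treg peaks. At Gsk3a the nearest Treg midpoint was 1499 bp away and belonged to a Treg-only peak, and at Bcl2 it was 2072 bp away. Only 23 genes had 2 conventional-only end peaks and 0 had 3. Cdkn2d had 685 bp at its far end and 439 bp at its start, and Coro1c, an actin-binding coronin gene, likewise had 601 and 483 bp. Ap3m2, a vesicle adaptor gene, had 874 and 711 bp at the same end. Cbx5, which encodes heterochromatin protein HP1 alpha, had 456 and 515 bp at its start. Capza1 and St7l, divergent neighbours, shared peaks of 585 and 482 bp.

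Distance to the Treg list is a measure that the selection used, up to 1000 bp and alike for conventional-only peaks in every place, so it is described here with no test. A Treg midpoint lay within 20 kb of 177 of the 1344, or 13.2% (11.4% to 15.1%), against 212 of 807, or 26.3% (23.3% to 29.5%), of those inside genes and 92 of 348, or 26.4% (21.9% to 31.4%), of those between genes. The differences were -13.1 and -13.3 percentage points. Without the distance rule the share at gene ends was 15.6%, against 27.6% inside genes and 27.3% between genes, and with a limit of 5000 bp it was 9.6%, against 18% and 18.5%. The median distance to the nearest Treg midpoint was 125606 bp at gene ends, 70547 bp inside genes and 80358 bp between genes. Of the 177 nearest Treg peaks, 114 were shared and 58 Treg-only, and 82 were themselves at a gene end.

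**Figure D5:**
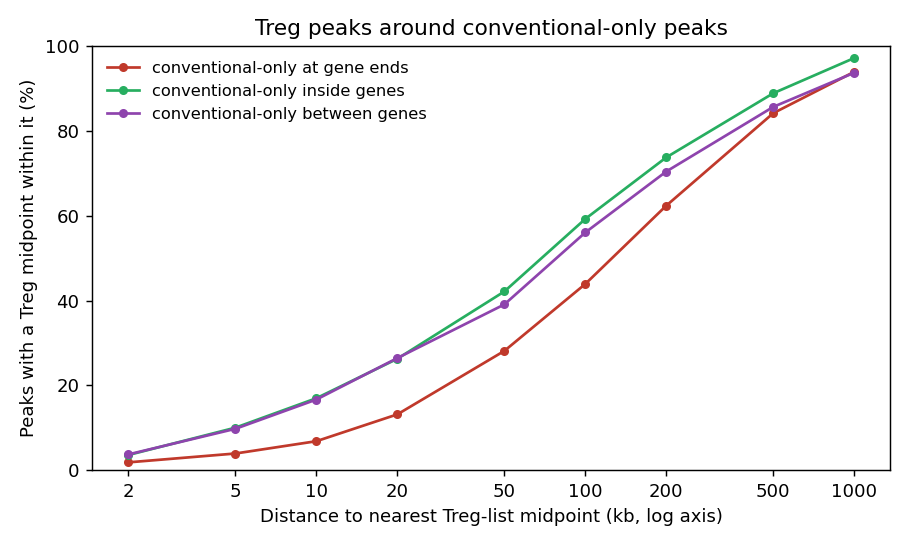
Share of conventional-only peaks at gene ends, inside genes and between genes (vertical axis, %) with a Treg midpoint within a given distance (horizontal axis, kb, log scale). At 20 kb the shares are 13.2%, 26.3% and 26.4%, and the gene-end curve is the lowest at each distance up to 500 kb.

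The selection has limits in distance, and peaks lie on both sides of them. Just inside the gene-end limit were the peaks at Gm46046, Gm33800 and Camkk2, at 991, 989 and 987 bp, and the nearest outside it were at 1007, 1016 and 1019 bp. Just inside the Treg limit were Lpxn, Esyt1 and Eif4a1, at 1034, 1062 and 1067 bp from a Treg midpoint, and just outside it Klf2 and Ttc41, at 991 and 972 bp.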

How the data were processed

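Peaks came from ChIP-seq for Tcf1 in 2 of the study's 3 libraries. Per the submitters' processing notes, the tools were Bowtie2 2.3.4.1, MACS2 2.1.1 and FastQC and the build was mm10. The authors deposited filtered peak lists with chromosome, start and end alone, and no source used here gives the filter. A depth-dependent calling threshold can change the number and width of peaks. The deposited lists give no read counts.

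Overlap by 1 bp or more with the other list made a peak shared. Gene spans and types came from a RefSeq table of GRCm38.p6, without strand. Strand came from its promoter windows, for 27025 genes, and chromosome 18 has none. Where several windows lay inside a peak, the one nearest the midpoint was used. Shares carry Clopper-Pearson intervals. The 10 two-sided Fisher's exact tests were adjusted by the Benjamini-Hochberg method, and the 2 on distance to the Treg list are not reported, since the selection used that distance. Widths, motifs and gene lists carry no test. Members, gene lists and tests were chosen with earlier results of these data known. The histone pattern was extended to newer symbols after the gene table was read. Named genes are the 8 widest peaks, the 3 nearest to each limit, up to 3 genes per list by width and up to 6 genes with several peaks. Some genes taken by this rule are not reported here. Other genes were named after their values were seen. The steps were tested on simulated data. Alternatives were other windows, distances, overlaps, widths, gene sets and CpG limits. Computation used Python 3.11.15, numpy 2.4.6, pandas 2.3.3, scipy 1.17.1 and matplotlib 3.10.9.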

Additional observations from a re-analysis of the deposited data

How the results depend on the processing

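The share with a Treg midpoint within 20 kb kept its direction under every alternative run (differences of -8.44 to -14.1 points, including a limit of 50 kb). The selection used that distance up to 1000 bp, so this is a description with no test. The protein-coding share against Treg-only peaks missed the threshold with a window of 500 bp (3.76 points, Fisher's exact test, adjusted p = 0.112), with a Treg distance of 5000 bp (4.1 points, adjusted p = 0.0754) and without peaks at rRNA genes (1.8 points, adjusted p = 0.492). The causes of the first 2 losses were not tested. Differences that met no threshold changed sign in 7 cases. With a window of 2 kb the share at a start against shared peaks was -0.769 points, and with protein-coding genes only it was -0.178. With 5000 bp the CpG-rich share against shared peaks was 0.537. Against shared peaks, the share with several gene ends was 0.49 with protein-coding genes only and 0.142 in the wider part of each list, where the share at a start against Treg-only peaks was 1.28 and the CpG-rich share 0.441. The cause was not tested. The number of conventional-only peaks was 577 in the wider part, where fewer peaks remain, and 1184 to 1518 under the other alternatives, and 84 listed genes had one there against 180. Counts for single lists moved by over 1.5 times in 20 cases and by less in 100.

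Depth and binding strength are unknown, so a peak called in conventional cells alone and a peak below the calling threshold in Treg cells cannot be told apart. No paired analysis was possible because each cell type had 1 library and the labels carry no replicate numbers.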
